A study of Mus musculus with 37 samples.

Results

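Wnt signaling in the injured heart and in its cultured cells was followed here through 10 genes. They are the secreted antagonists Sfrp1, Sfrp2, Sfrp4, Sfrp5, Frzb, Dkk2, Dkk3 and Wif1 and the targets Axin2 and Lef1. They are a list of gene names with no threshold on a measured value, drawn up with earlier results of these data known, and all 10 are listed among the 30892 genes of the cardiac fibroblast (CF) counts, the 20158 genes of the neonatal rat ventricular myocyte (NRVM) counts and the 31053 genes of the single-cell counts. Wnt proteins are secreted ligands that bind Frizzled receptors and LRP coreceptors, and in the canonical branch this keeps β-catenin from being degraded, so that it joins TCF/LEF factors on target genes. The secreted Frizzled-related proteins, of which Frzb is one, and Wif1 bind Wnt ligands outside the cell, whereas Dickkopf proteins act mainly on the LRP coreceptors. In the heart the pathway shapes development and is switched on again after injury, and fibroblasts are a known source of the secreted antagonists.

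The study asked how ENPP1, an ectonucleotidase that splits extracellular ATP into AMP and pyrophosphate, alters the exchange of signals between myocytes and nonmyocytes. CFs were labelled as immortalized, wild-type C57BL/6 mouse cells, and NRVMs were wild-type Sprague-Dawley rat cells. Both were kept in serum-free medium with insulin, transferrin and selenium before they received conditioned medium. That medium came from NRVMs treated with vehicle, ENPP1, ATP, ENPP1+ATP or AMP (MCndM), so CFs were exposed to secretions of rat cells. CFs were harvested at 24 h and 48 h with 2 libraries per medium and time, and NRVMs at 24 h with 3 libraries per medium. Nonmyocytes were taken from injured C57BL/6 hearts 7 days after myocardial infarction as 1 library of ENPP1CKO mice and 1 of control mice labelled wild type. ENPP1CKO mice carried Col1a2CreERT and floxed ENPP1 alleles, so deletion was limited to cells that express Col1a2, and received tamoxifen from 5 days before to 7 days after injury. The number of hearts per library and the age of the mice were not given in the sources used here. The study's methods describe replicates in general as biological, but neither they nor the labels say whether the libraries of a group came from separate cultures or cell preparations. The p-values measure the spread between these libraries.

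CF libraries held 32184799 to 115824659 reads in genes and NRVM libraries 13481389 to 16977980. Marker sums are given as CPM, the counts of a gene scaled to the total of its library, which for CFs and NRVMs was adjusted by TMM, a scaling on the bulk of genes. In CFs the 10 fibroblast markers were all detected in every library and summed to 2640 to 7220 CPM, against 13.5 to 27.5 CPM for 10 cardiomyocyte markers. In NRVMs the cardiomyocyte markers summed to 16200 to 30300 CPM, and 9 fibroblast markers to 8290 to 26100 CPM, so these cultures held fibroblast RNA as well. In NRVMs 4 libraries stood apart in Frzb and some other genes, namely AMP replicate 3 and replicate 2 of ATP, of ENPP1 and of ENPP1+ATP, and the results on members in NRVMs are given with them and, where a call changed, also with all 4 left out together. In bulk libraries, fewer cells of a type and less RNA per cell cannot be told apart.

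Positions of the members are given in mouse GRCm38, the assembly that the submitters' processing notes call mm10. By GENCODE annotation, Sfrp1 is at chr8:23411502-23449632, Sfrp2 at chr3:83766321-83774316, Sfrp4 at chr13:19623104-19632994, Sfrp5 at chr19:42197971-42202252 and Frzb at chr2:80411970-80447625. Dkk2 is at chr3:132085292-132180304, Dkk3 at chr7:112116017-112159057 and Wif1 at chr10:121033960-121100650. Axin2 is at chr11:108920349-108950783 and Lef1 at chr3:131110471-131224356. Antisense gene models overlap Sfrp2, Axin2 and Lef1, and whether reads were counted by strand was not given in the sources used here.

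Because Axin2 and Lef1 are read as targets of β-catenin, and antagonists can also carry TCF/LEF sites, the RefSeq promoters of the members (GRCm38.p6, 250 bases before to 50 after each start) were searched for the core words CTTTGA and CTTTGT and their reverse complements TCAAAG and ACAAAG. Sfrp1, Sfrp4 and Dkk3 have no entry. Of 10 promoters of 7 members, 3 held a word, against 31.2% of 32817 promoters. They were those of Frzb at base -95 from the start, Dkk2 at -80 and 1 of the 4 Lef1 promoters at -180, -146 and -120. At least 3 words are found in 1.14% of all promoters. The promoters of Axin2, Sfrp2, Sfrp5 and Wif1 and the other 3 of Lef1 held none of these words in the window. Printed here are the Sfrp2 promoter, because Sfrp2 was the member with the highest level in CFs, the Lef1 promoter with 3 words, and the stretch around the Frzb word, which overlaps an exon of the GENCODE annotation. Capitals mark the words, and each sequence reads 5′ to 3′ on the strand of its gene.
Sfrp2 promoter, chr3:83766071-83766320, plus strand: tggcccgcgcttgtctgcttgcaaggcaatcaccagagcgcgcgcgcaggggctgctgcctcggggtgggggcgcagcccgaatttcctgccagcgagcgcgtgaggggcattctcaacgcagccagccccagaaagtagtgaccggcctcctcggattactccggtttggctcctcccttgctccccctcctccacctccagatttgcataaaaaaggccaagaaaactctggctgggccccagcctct
Frzb word, chr2:80447474-80447503, minus strand: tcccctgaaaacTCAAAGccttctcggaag
Lef1 promoter, chr3:131156044-131156293, plus strand: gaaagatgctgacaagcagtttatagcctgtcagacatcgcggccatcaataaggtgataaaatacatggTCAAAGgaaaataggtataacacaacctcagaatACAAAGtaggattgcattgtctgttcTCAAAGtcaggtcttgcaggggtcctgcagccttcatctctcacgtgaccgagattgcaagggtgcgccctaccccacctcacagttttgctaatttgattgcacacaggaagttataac

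In CFs the members spanned a wide range of levels per gene length, given as reads per kilobase of exon, scaled to library size (RPKM). In vehicle MCndM at 24 h, Sfrp2 was at 162 RPKM, the highest of the 10, followed by Sfrp1 at 6.94 RPKM and Frzb at 1.27 RPKM (means, n = 2). These 3 neighbours did not overlap in the order. Axin2 was at 0.35 RPKM (0.329 to 0.371) and Sfrp4 at 0.328 RPKM (0.242 to 0.414), which overlapped, and Lef1 at 0.113 RPKM. Wif1 was at 0.0527 RPKM and Dkk3 at 0.0296 RPKM, whereas Dkk2, at 0.00442 RPKM, rested on 1 read in each library. Sfrp5 had 0 reads in both. In CFs 6 members passed the filter on low counts, namely Sfrp1, Sfrp2, Sfrp4, Frzb, Axin2 and Lef1. The 4 others had at most 29 reads in any CF library and were not tested.

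In CFs treated for 24 h with ENPP1+ATP MCndM, Sfrp1 rose while Sfrp2, Frzb and Lef1 fell. Sfrp1 was at 29.2 and 31.5 CPM with vehicle and at 53.6 and 50.9 CPM with ENPP1+ATP MCndM. AMP MCndM gave 59.3 and 48.3 CPM. All 4 libraries of these media lay above both vehicle libraries. At each time all media in CFs are compared with the same 2 vehicle libraries, so these comparisons are not independent of each other. The log2 fold change of Sfrp1 was 0.79 ± 0.09 (SE) with ENPP1+ATP (adjusted p = 1.7e-07) and 0.82 ± 0.09 with AMP (adjusted p = 6.29e-08, edgeR quasi-likelihood test with Benjamini-Hochberg adjustment over 17879 genes). Of the members tested, 4 of 6 passed with ENPP1+ATP, where 49.1% of all genes did, and 2 of 6 passed with AMP, where 52.8% did. The median log2 fold change was -0.64 over the members and -0.0046 over all genes with ENPP1+ATP, and -0.14 and -0.0058 with AMP. With single libraries left out, the member median ran from -0.805 to -0.488 with ENPP1+ATP and from -0.308 to -0.0159, without vehicle replicate 1, with AMP.

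Sfrp2, which binds Wnt ligands and is also known as a collagen-processing enhancer, fell with both media. It was at 353 and 344 CPM with vehicle. ENPP1+ATP MCndM brought it to 95.9 and 99.4 CPM and AMP MCndM to 75.1 and 85.1 CPM. Both media lay far below vehicle, without overlap. The change was -1.84 ± 0.06 with ENPP1+ATP, or 3.57-fold lower (adjusted p = 1.77e-17), and -2.12 ± 0.06 with AMP, or 4.34-fold lower (adjusted p = 1.62e-18). AMP was also below ENPP1+ATP, by -0.28 ± 0.06 (adjusted p = 0.00379), but without AMP replicate 1 this difference was -0.20 and its adjusted p was 0.0598. In the comparison of AMP with ENPP1+ATP at 24 h, 2 of 6 members passed, against 6.25% of all genes.

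Frzb, the secreted Frizzled-related protein first known from cartilage, was at 4.35 and 3.92 CPM with vehicle and at 2.4 and 2.69 CPM with ENPP1+ATP MCndM. The groups did not overlap, and the change was -0.70 ± 0.18 (adjusted p = 0.00199). With AMP MCndM it was at 3.04 and 3.36 CPM, both below vehicle, but the change of -0.37 ± 0.17 did not pass (adjusted p = 0.076). Sfrp4 had 1.73 and 1.01 CPM with vehicle, 2.3 and 1.81 CPM with ENPP1+ATP and 1.43 and 1.57 CPM with AMP. Its log2 fold change with ENPP1+ATP was 0.54 ± 0.28 (adjusted p = 0.122), and without vehicle replicate 1 it was 1.02 (adjusted p = 0.0326), so this library decided the call.

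Of the 2 targets, Lef1 passed and Axin2 did not. Axin2, a scaffold of the β-catenin destruction complex and a feedback target, was at 1.81 and 2.04 CPM with vehicle, 1.08 and 1.49 CPM with ENPP1+ATP and 1.46 and 1.31 CPM with AMP. All 4 treated libraries were lower, but neither change passed (-0.57 ± 0.32, adjusted p = 0.141, and -0.48 ± 0.31, adjusted p = 0.204). Lef1, a TCF/LEF factor that is itself a Wnt target, was at 1.04 and 0.961 CPM with vehicle and at 0.196 and 0.317 CPM with ENPP1+ATP MCndM. With AMP MCndM it was at 1.43 and 0.915 CPM. Lef1 was thus low with ENPP1+ATP, without overlap, and on both sides of the vehicle libraries with AMP. The change was -1.95 ± 0.46 with ENPP1+ATP (adjusted p = 0.000885), from 8 and 14 reads, and 0.21 ± 0.39 with AMP (adjusted p = 0.684). The difference of AMP from ENPP1+ATP was 2.16 ± 0.46 (adjusted p = 0.00583). Without ENPP1+ATP replicate 1 its adjusted p was 0.109, and in a fit of these 2 groups alone it was 0.0566.

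**Figure D1:**
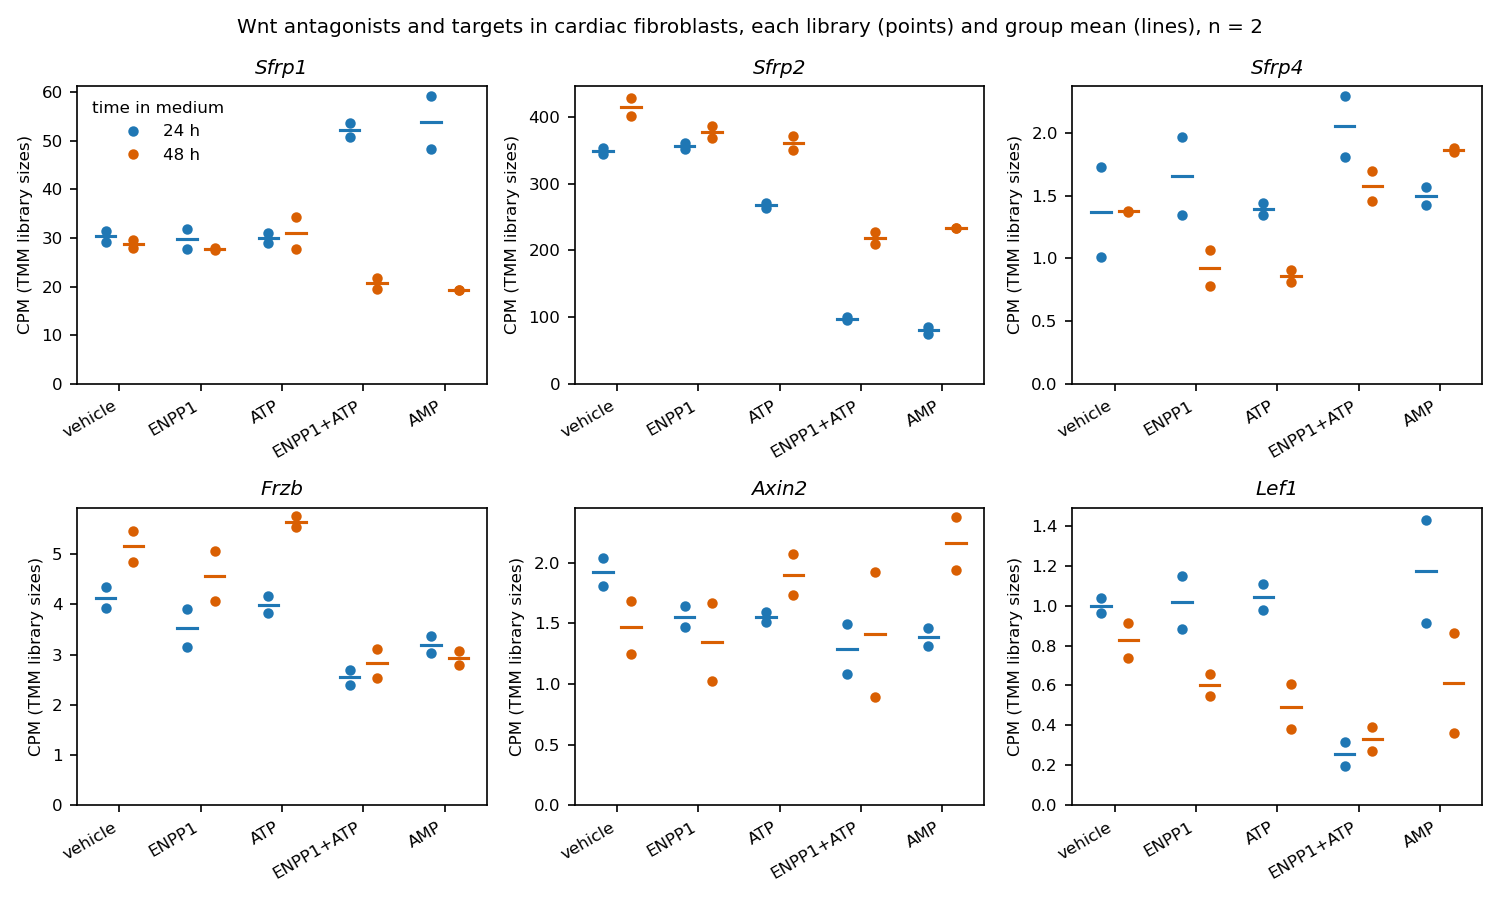
Level of each tested member in the 20 CF libraries, as CPM on linear axes that start at 0, by medium and time, with 1 point per library and a line at each group mean. At 24 h both ENPP1+ATP and both AMP libraries lay above vehicle for Sfrp1 and below vehicle for Sfrp2, and both ENPP1+ATP libraries lay below vehicle for Lef1.

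With ATP MCndM, Sfrp2 fell. It was at 264 and 271 CPM at 24 h, below both vehicle libraries, a change of -0.38 ± 0.05 (adjusted p = 1.81e-05). Sfrp2 was the 1 member of 6 that passed, against 11.1% of all genes. Sfrp1 was at 29 and 31 CPM, overlapping vehicle, with a 95% interval of the change from -0.21 to 0.18. Against ATP MCndM, ENPP1+ATP MCndM changed 4 of 6 members at 24 h, against 43.9% of all genes: Sfrp1 by 0.80 ± 0.10, Sfrp2 by -1.46 ± 0.06, Frzb by -0.65 ± 0.18 and Lef1 by -2.01 ± 0.46 (largest adjusted p = 0.00562). The Frzb call was lost without ATP replicate 1 or without ENPP1+ATP replicate 1 (adjusted p = 0.0539 and 0.0618). With ENPP1 MCndM, 0 members and 0 genes (0%) passed by edgeR and by DESeq2 at 24 h, and at an unadjusted p under 0.05 there were 249 genes and 0 members. Sfrp1 was at 31.9 and 27.8 CPM and Sfrp2 at 361 and 352 CPM there.

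At 48 h Sfrp1 had changed sides. It was at 28 and 29.5 CPM with vehicle. ENPP1+ATP MCndM gave 21.7 and 19.6 CPM and AMP MCndM 19.3 and 19.2 CPM. All 4 libraries lay below vehicle, where at 24 h all 4 had been above it. The change was -0.48 ± 0.10 with ENPP1+ATP (adjusted p = 0.000355) and -0.58 ± 0.10 with AMP (adjusted p = 3.99e-05). With ENPP1+ATP at 48 h, 4 of 6 members passed, against 45.2% of all genes, and with AMP 3 of 6, against 44.0%. The median over the members was -0.667 with ENPP1+ATP and -0.505 with AMP, and over all genes -0.0269 and -0.0275. Without AMP replicate 2 the member median with AMP was -0.248.

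Sfrp2 stayed below vehicle at 48 h, by a smaller margin. It was at 429 and 402 CPM with vehicle, 210 and 228 CPM with ENPP1+ATP MCndM and 233 and 234 CPM with AMP MCndM. The groups did not overlap, and the change was -0.92 ± 0.05 (adjusted p = 5.19e-13) and -0.83 ± 0.05 (adjusted p = 3.35e-12). Frzb was at 4.84 and 5.47 CPM with vehicle, 3.12 and 2.54 CPM with ENPP1+ATP and 3.08 and 2.8 CPM with AMP. It was lower in all 4 treated libraries, by -0.86 ± 0.18 (adjusted p = 0.000318) and -0.81 ± 0.18 (adjusted p = 0.000567). Lef1 was at 0.736 and 0.915 CPM with vehicle, 0.39 and 0.271 CPM with ENPP1+ATP and 0.865 and 0.361 CPM with AMP. Its change of -1.30 ± 0.45 with ENPP1+ATP passed (adjusted p = 0.0215) but did not without ENPP1+ATP replicate 2 (-1.07, adjusted p = 0.121), without vehicle replicate 2 (-1.15, adjusted p = 0.116) or in a fit of the 2 groups alone (adjusted p = 0.0686). Axin2 ranged from 0.895 to 2.38 CPM over the 48 h libraries and passed in no comparison with vehicle.

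In the other comparisons at 48 h, ATP MCndM lowered Sfrp2 to 371 and 351 CPM, by -0.20 ± 0.05 (adjusted p = 0.0162), the 1 of 6 members that passed, against 7.83% of all genes. This call was lost without ATP replicate 2 (adjusted p = 0.215) or vehicle replicate 1 (adjusted p = 0.372). ENPP1+ATP against ATP MCndM changed 4 of 6 members, against 39.5% of all genes: Sfrp1 by -0.59 ± 0.10, Sfrp2 by -0.72 ± 0.05, Frzb by -0.99 ± 0.18 and Sfrp4 by 0.88 ± 0.31 (adjusted p = 0.0261). Sfrp4 was at 1.7 and 1.46 CPM with ENPP1+ATP and at 0.904 and 0.808 CPM with ATP. Its call was lost without either ATP replicate or without ENPP1+ATP replicate 1 (adjusted p of 0.0848, 0.144 and 0.117). Axin2 in this comparison was at -0.44 ± 0.32, and passed only without ENPP1+ATP replicate 2 (-1.09, adjusted p = 0.0216). Between AMP and ENPP1+ATP MCndM at 48 h, 0 of 6 members and 0.162% of all genes passed, with 0 members and 2460 genes at an unadjusted p under 0.05 and 125 genes by DESeq2. The 95% interval of that difference ran from -0.32 to 0.11 for Sfrp1 and from -0.02 to 0.20 for Sfrp2. With ENPP1 MCndM, 0 of 6 members and 0% of genes passed by edgeR and DESeq2, with 743 genes and 1 member, Sfrp2 at -0.14 ± 0.05, at an unadjusted p under 0.05.

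**Figure D2:**
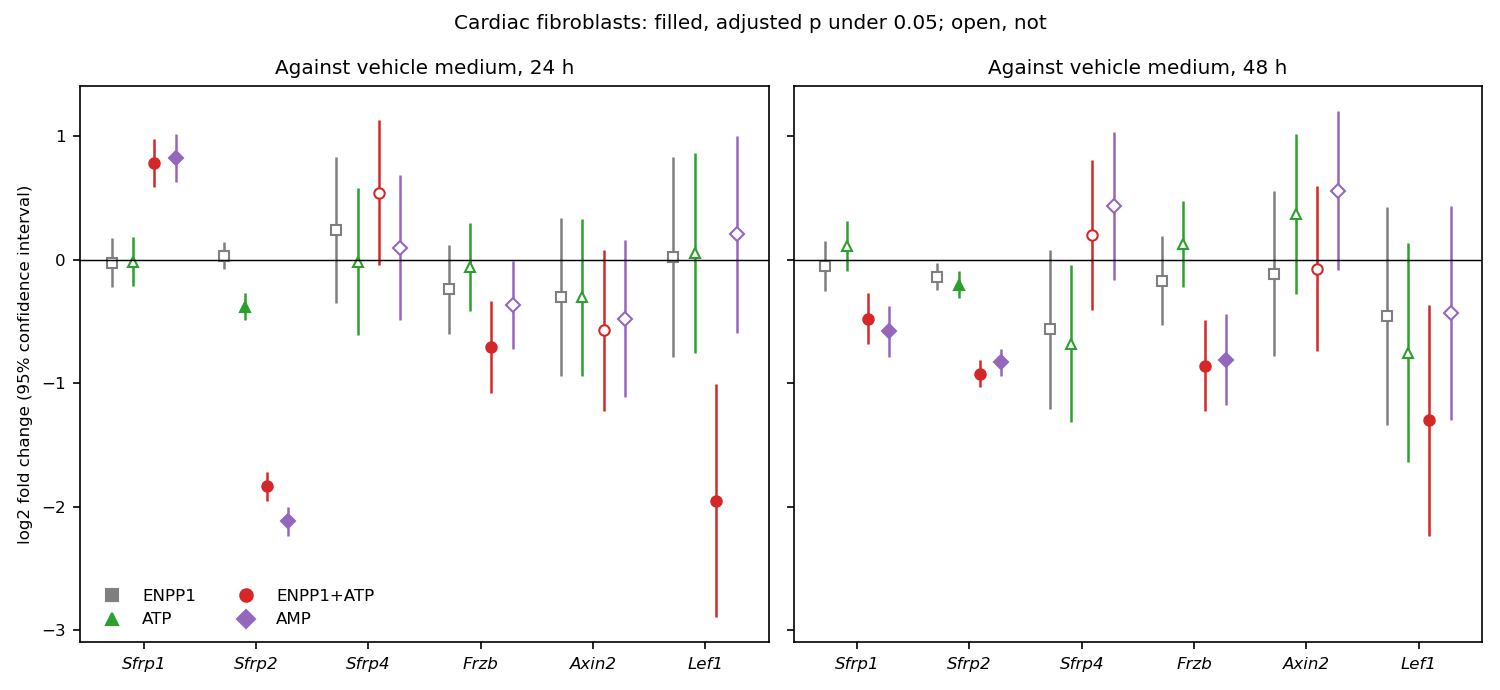
Log2 fold change against vehicle MCndM of the 6 tested members in CFs at 24 h and 48 h, with 95% intervals from edgeR and filled symbols where the adjusted p was under 0.05. Sfrp1 lay above 0 at 24 h and below 0 at 48 h with ENPP1+ATP and with AMP, and Sfrp2 lay below 0 at both times.

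Within a medium, 48 h was compared with 24 h. With ENPP1+ATP MCndM, Sfrp1 fell by 1.34 ± 0.10 and Sfrp2 rose by 1.17 ± 0.06 on the log2 scale (adjusted p = 1.48e-10 and 6.54e-14). With AMP MCndM, Sfrp1 fell by 1.48 ± 0.10 and Sfrp2 rose by 1.54 ± 0.06 (adjusted p = 1.73e-11 and 2.58e-16). These were the 2 of 6 members that passed in each medium, where 40.7% of all genes passed with ENPP1+ATP and 43.1% with AMP. Sfrp2 also rose with vehicle, by 0.25 ± 0.05 (adjusted p = 0.00493), and with ATP, by 0.43 ± 0.05 (adjusted p = 5.06e-06), as the 1 of 6 members in each, against 4.88% and 14.8% of all genes. The rise with vehicle was lost without vehicle replicate 2 of 24 h or replicate 1 of 48 h (adjusted p = 0.0907 and 0.132). With ENPP1, 0 of 6 members passed, against 7.95% of all genes, with 3721 genes and 2 members at an unadjusted p under 0.05 and 1604 genes by DESeq2. The difference between the effects at 48 h and at 24 h was tested itself. It was -1.26 ± 0.14 for Sfrp1 and 0.91 ± 0.08 for Sfrp2 with ENPP1+ATP (adjusted p = 1.7e-07 and 2.53e-09), the 2 of 6 members that passed, against 30.0% of all genes. With AMP it was -1.40 ± 0.14 and 1.29 ± 0.08 (adjusted p = 2.64e-08 and 7.57e-12), again 2 of 6, against 31.7%.

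Other values moved with these results, and their part in them was not tested. The summed fibroblast markers of CFs fell from 6870 to 7220 CPM with vehicle at 24 h to 3370 to 3480 CPM with ENPP1+ATP and 2640 to 2850 CPM with AMP, and at 48 h from 6740 to 7120 CPM to 3510 to 3730 CPM and 3720 to 3970 CPM. None of the 10 was at 0 in any library. The 10 cell-cycle markers summed to 1780 to 1790 CPM with vehicle at 24 h, 3860 to 4140 CPM with ENPP1+ATP and 3690 to 4080 CPM with AMP, and at 48 h to 1780 to 1830 CPM, 2460 to 2540 CPM and 2420 to 2430 CPM. The 10 macrophage markers summed to 8.48 to 8.7 CPM with vehicle at 24 h, 25.6 to 32.8 CPM with ENPP1+ATP and 49.7 to 50.8 CPM with AMP, and at 48 h to 9.35 to 9.44 CPM, 61 to 70.9 CPM and 66.2 to 75.7 CPM. Among them Cd68 ranged from 1.92 to 64.8 CPM over the 20 libraries and Csf1r from 0.735 to 9.68 CPM, whereas Adgre1, C1qa, C1qb, C1qc, Mrc1, Fcgr1 and Ms4a7 were at most at 0.167 CPM in any library and all of these but C1qa were at 0 in some. The 10 smooth muscle or pericyte markers summed to 116 to 120 CPM with vehicle at 24 h, 162 to 164 CPM with ENPP1+ATP and 171 to 183 CPM with AMP, and at 48 h to 129 to 134 CPM, 359 to 373 CPM and 403 to 431 CPM. Most of this sum was Notch3, at 90.1 to 419 CPM over the libraries, while Myh11 was at most at 0.758 CPM. Enpp1 of the CFs themselves was at 6.23 and 5.81 CPM with vehicle at 24 h, 24.1 and 21.8 CPM with ENPP1+ATP and 27.2 and 24 CPM with AMP. At 48 h it was at 8.17 and 6.1 CPM with vehicle, 9.89 and 9.04 CPM with ENPP1+ATP and 6.56 and 5.69 CPM with AMP, where AMP overlapped vehicle.

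Over the 10 medium and time groups, the genes whose mean levels followed a member most closely were Paip2b (r = 0.983) and Irf9 (r = 0.982) for Sfrp1, St6galnac6 (r = 0.997) and Gng12 (r = 0.994) for Sfrp2, and Adck1 (r = 0.957) and Stard3nl (r = 0.952) for Frzb. These are Pearson correlations of group means among about 9924 genes, which share libraries and media, and are given as a description.

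The rest of the pathway was followed with 8 lists of 108 genes. In CFs at 24 h, 23 of 86 tested genes were higher and 36 lower with ENPP1+ATP MCndM, with a median log2 fold change of -0.16, where 23.9% of all genes were higher and 25.3% lower. With AMP 24 were higher and 39 lower, also at -0.16, against 25.3% and 27.5% of all genes. At 48 h it was 23 higher and 37 lower with ENPP1+ATP (20.8% and 24.4% of all genes) and 27 higher and 31 lower with AMP (21.1% and 22.9%). With ATP MCndM 5 were higher and 22 lower at 24 h (4.77% and 6.32% of all genes) and 6 higher and 15 lower at 48 h (5.35% and 2.48%). Of 12 tested Wnt ligands, 6 were higher and 1 lower at 24 h with ENPP1+ATP and 6 higher and 3 lower with AMP. Wnt9a rose by 2.68 ± 0.13 with ENPP1+ATP (adjusted p = 1.7e-14) and by 3.15 ± 0.13 with AMP (adjusted p = 5.63e-16). Wnt5a, which signals mostly outside the β-catenin branch, rose by 0.92 ± 0.12 and 1.24 ± 0.12 (adjusted p = 7.84e-07 and 3.73e-09). Both were also higher at 48 h, Wnt9a by 2.70 ± 0.13 with ENPP1+ATP and 2.91 ± 0.13 with AMP. Wls, the carrier that brings Wnt proteins to the cell surface, fell by 0.79 ± 0.05 and 1.01 ± 0.06 at 24 h.

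More receptors and amplifiers were lower than higher. Of 16 Frizzled receptors and coreceptors, 3 were higher and 10 lower with ENPP1+ATP and 3 higher and 11 lower with AMP at 24 h, against the 23.9% higher and 25.3% lower of all genes with ENPP1+ATP and the 25.3% and 27.5% with AMP. At 48 h it was 2 higher and 10 lower with ENPP1+ATP and 2 higher and 7 lower with AMP. ATP MCndM alone gave 0 higher and 8 lower at 24 h and 0 and 6 at 48 h, against 6.32% and 2.48% of all genes lower. Fzd2 changed by -1.56 ± 0.07 with ENPP1+ATP and -2.28 ± 0.07 with AMP, Fzd1 by -1.28 ± 0.05 and -1.72 ± 0.05, and Fzd8 by -1.37 ± 0.07 and -1.43 ± 0.07 (largest adjusted p = 3.32e-14). Fzd3 went the other way, by 1.16 ± 0.16 and 1.14 ± 0.16 (adjusted p = 1.08e-06 and 1.16e-06). R-spondins amplify Wnt signals by sparing Frizzled receptors from degradation. Of the 5 tested R-spondins and Lgr receptors, 3 were lower with ENPP1+ATP, 4 were lower with AMP and none was higher. Rspo2 changed by -3.69 ± 0.40 and -5.40 ± 0.46 (adjusted p = 2.54e-08 and 3.18e-10) and Rspo3 by -1.17 ± 0.19 and -1.15 ± 0.18 (adjusted p = 1.03e-05 and 8.43e-06). At 48 h Rspo2 was at -3.79 ± 0.39 and -3.59 ± 0.38.

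Other antagonists were mostly lower. Of 8 tested genes of this list, 6 were lower and 1 higher with ENPP1+ATP and 7 lower and 1 higher with AMP at 24 h. The counts at 24 h are read against 25.3% of all genes lower and 23.9% higher with ENPP1+ATP and 27.5% and 25.3% with AMP. The lower antagonists included Trabd2b, a protease that cleaves Wnt proteins (-1.92 ± 0.11 and -2.18 ± 0.11), Apcdd1, a membrane antagonist that is also on the list of targets (-1.30 ± 0.08 in both media), and Igfbp4 (-1.372 ± 0.080 and -1.005 ± 0.076; largest adjusted p = 4.55e-11). Among 17 signal transduction genes, 8 were higher and 3 lower with ENPP1+ATP and 7 higher and 5 lower with AMP. The lower counts were not far from the shares of all genes, and the higher counts in both media lay above them, on few genes. The genes that passed included Apc at 0.56 ± 0.05 and Gsk3b, the kinase that marks β-catenin for degradation, at -0.65 ± 0.06 (adjusted p = 2.82e-09 and 2.49e-09). Of 11 TCF factors and cofactors, 0 were higher and 6 lower with ENPP1+ATP, led by the corepressor Tle2 at -1.67 ± 0.15 (adjusted p = 1.04e-06). With AMP 1 was higher and 4 were lower. At 48 h 4 of the 11 were higher and 2 lower in each medium, with medians of 0.13 and 0.203, against 20.8% higher and 24.4% lower of all genes with ENPP1+ATP and 21.1% and 22.9% with AMP, so few genes separate these counts from the shares.

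Of 18 other targets tested, 5 were higher and 7 lower with ENPP1+ATP and 6 higher and 5 lower with AMP at 24 h. These counts lay near the shares of all genes, 23.9% higher and 25.3% lower with ENPP1+ATP and 25.3% and 27.5% with AMP. Jun rose by 2.07 ± 0.07 and 2.58 ± 0.07 and Fosl1 by 1.70 ± 0.10 and 2.48 ± 0.10 (largest adjusted p = 3.81e-11). Myc fell by 0.85 ± 0.07 with ENPP1+ATP (adjusted p = 1.88e-10) and Twist1 by 0.65 ± 0.07 (adjusted p = 2.87e-08). At 48 h Ccnd1, which encodes cyclin D1, had risen by 2.46 ± 0.08 with ENPP1+ATP and 2.68 ± 0.08 with AMP, and Id2 had fallen by 1.58 ± 0.12 and 1.68 ± 0.12 (largest adjusted p = 6.33e-11). These target genes answer to many other pathways as well.

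In NRVMs 8 members passed the filter on low counts, all but Sfrp5 and Dkk2. Sfrp5 had 1 read in 2 of 15 libraries and 0 in the others, and Dkk2 had at most 8 reads. The vehicle libraries serve as control in every comparison with vehicle, so these comparisons are not independent of each other. With ENPP1+ATP MCndM, 5 of 8 members passed, against 56.0% of 13461 genes, and with AMP 5 of 8, against 57.2%. With ATP 4 of 8 passed, against 59.9%. The median over the members was -0.11, 0.32 and -0.076 with ENPP1+ATP, AMP and ATP, and over all genes 0.0079, 0.0088 and 0.0064. These member medians depended on single libraries. Without AMP replicate 3, which was high in Frzb, the median with AMP was -0.177, and without ATP replicate 2 that with ATP was -0.444. With ENPP1+ATP it ran from -0.171 to 0.0203 as single libraries were left out. With the 4 libraries uneven in Frzb left out together, a setting added after the data were seen, 5, 6 and 5 of 8 members passed with ENPP1+ATP, AMP and ATP, against 53.1%, 55.4% and 57.3% of 13495 genes, and the medians were -0.119, -0.184 and -0.447. Frzb, whose own level chose these libraries, is among the members that passed with each medium. These counts and medians are therefore no independent test.

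Axin2 fell in NRVMs. It was at 7.98, 10.6 and 11.5 CPM with vehicle and at 4.93, 6.13 and 3.49 CPM with ENPP1+ATP MCndM. AMP gave 4.74, 4.62 and 5.12 CPM, and ATP 2.36, 2.79 and 3.8 CPM. All 9 libraries of these media lay below all 3 vehicle libraries. The change was -1.04 ± 0.17 with ENPP1+ATP (adjusted p = 1.83e-06, edgeR), -1.05 ± 0.17 with AMP (adjusted p = 1.59e-06) and -1.74 ± 0.18 with ATP (adjusted p = 6.26e-11). ENPP1+ATP exceeded ATP by 0.70 ± 0.20 (adjusted p = 0.00626), a call lost without ATP replicate 1 (adjusted p = 0.0506) or ENPP1+ATP replicate 2 (adjusted p = 0.104), and also without the 4 libraries uneven in Frzb (0.44 ± 0.25, adjusted p = 0.22).

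Lef1 was not lower. It was at 2.96, 3.24 and 4.94 CPM with vehicle, 4.19, 5.1 and 5.98 CPM with ATP, 3.87, 3.13 and 4.52 CPM with ENPP1+ATP and 3.42, 4.89 and 5.12 CPM with AMP. The groups overlapped. Its rise of 0.47 ± 0.20 with ATP passed narrowly (adjusted p = 0.0454), and it did not pass by DESeq2 (adjusted p = 0.113), with no filter on low counts (0.0516), without robust estimation (0.0569) or without any of 4 single libraries, namely ATP replicate 2 or 3 and vehicle replicate 1 or 2 (adjusted p from 0.0814 to 0.242), or without the 4 libraries uneven in Frzb (0.0716). With AMP Lef1 was at 0.28 ± 0.21 and passed only without vehicle replicate 3 (0.53, adjusted p = 0.0491).

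The secreted antagonists moved in both directions in NRVMs. Sfrp1 was at 73.9, 73.7 and 77.1 CPM with vehicle, 94.8, 106 and 102 CPM with ENPP1+ATP and 107, 107 and 129 CPM with AMP. Both media lay above vehicle without overlap, by 0.43 ± 0.08 (adjusted p = 0.000174) and 0.61 ± 0.08 (adjusted p = 3.56e-06). With ATP it was at 71.7, 76.3 and 63.4 CPM, and the change of -0.09 ± 0.08 did not pass (adjusted p = 0.382), whereas without the 4 libraries uneven in Frzb it was -0.15 ± 0.06 and passed (adjusted p = 0.0267). Sfrp2 was at 66.4, 71.6 and 70.6 CPM with vehicle, 42, 44.4 and 41.2 CPM with ATP and 52.3, 44.1 and 53.4 CPM with AMP. Both lay below vehicle, by -0.71 ± 0.09 (adjusted p = 3.02e-06) and -0.48 ± 0.09 (adjusted p = 0.000225). With ENPP1+ATP, Sfrp2 was at 54.6, 67.6 and 49.5 CPM and 1 library overlapped vehicle. That change of -0.28 ± 0.09 passed (adjusted p = 0.0139) but not without ENPP1+ATP replicate 1 (0.0582), without vehicle replicate 2 (0.0535) or in a fit of the 2 groups alone (0.0528).

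Dkk3, a divergent Dickkopf protein whose role in Wnt signaling is less settled, was at 351, 343 and 327 CPM with vehicle, 474, 488 and 448 CPM with ENPP1+ATP and 460, 442 and 454 CPM with AMP. The groups did not overlap, and the rise was 0.46 ± 0.04 (adjusted p = 3.71e-13) and 0.41 ± 0.04 (adjusted p = 1.64e-11). With ATP Dkk3 was at 338, 318 and 321 CPM, and its 95% interval ran from -0.15 to 0.02. Sfrp4 was at 1.93, 2 and 1.6 CPM with vehicle, 0.589, 0.534 and 0.322 CPM with ATP, 1.05, 0.396 and 0.14 CPM with AMP and 1.34, 0.766 and 0.775 CPM with ENPP1+ATP. All 9 libraries were below vehicle, on 2 to 19 reads each. The change was -1.92 ± 0.42 with ATP (adjusted p = 0.000118), -1.77 ± 0.42 with AMP (adjusted p = 0.000339) and -0.95 ± 0.38 with ENPP1+ATP (adjusted p = 0.0296). The last call was lost by DESeq2 (adjusted p = 0.0701) and without any of 4 single libraries, namely ENPP1+ATP replicate 2 or 3 and vehicle replicate 1 or 2 (0.0754 to 0.111), and without the 4 libraries uneven in Frzb (0.0737). Wif1, a Wnt-binding inhibitor, was at 3.71, 4.96 and 4.94 CPM with vehicle and between 3.74 and 6.19 CPM elsewhere, and passed in no comparison.

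Frzb was uneven in NRVMs. Vehicle libraries held 7.98, 7.51 and 7.3 CPM. AMP libraries held 3.49, 2.84 and 48.4 CPM, ATP libraries 2.09, 24.2 and 4.18 CPM, ENPP1 libraries 5.94, 27 and 8.06 CPM and ENPP1+ATP libraries 3.52, 12.4 and 2.58 CPM. In each of these 4 media 1 library stood far above its group, and in ATP, AMP and ENPP1+ATP the other two lay below all vehicle libraries. With all libraries no change of Frzb passed. Without AMP replicate 3 its change with AMP went from 1.24 ± 1.21 to -1.26 (adjusted p = 0.449), without ATP replicate 2 that with ATP from 0.44 ± 1.27 to -1.27 (adjusted p = 0.529), without ENPP1 replicate 2 that with ENPP1 from 0.87 ± 1.23 to -0.13 (adjusted p = 0.997) and without ENPP1+ATP replicate 2 that with ENPP1+ATP from -0.29 ± 1.37 to -1.32 (adjusted p = 0.573). Each of these fits still held the other 3 uneven libraries. With all 4 left out together, Frzb changed by -1.27 ± 0.22 with AMP (adjusted p = 2.39e-06, edgeR), by -1.27 ± 0.22 with ATP (adjusted p = 1.97e-06) and by -1.32 ± 0.22 with ENPP1+ATP (adjusted p = 1.45e-06), and was at -0.13 ± 0.19 with ENPP1 (adjusted p = 0.939). These calls rest on 2 libraries per medium and on leaving out libraries for their Frzb level, so they describe the libraries that remain and are no independent test. The direction of Frzb with AMP and ATP thus depended on 1 library in each. The same libraries stood apart for other genes, which were picked after their values were seen. Ntrk2 (5.24 to 75.5 CPM) and Fbln5 (22.3 to 153 CPM) followed Frzb within groups with r of 0.988 and 0.975 over 15 libraries, which share those 4 libraries.

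**Figure D3:**
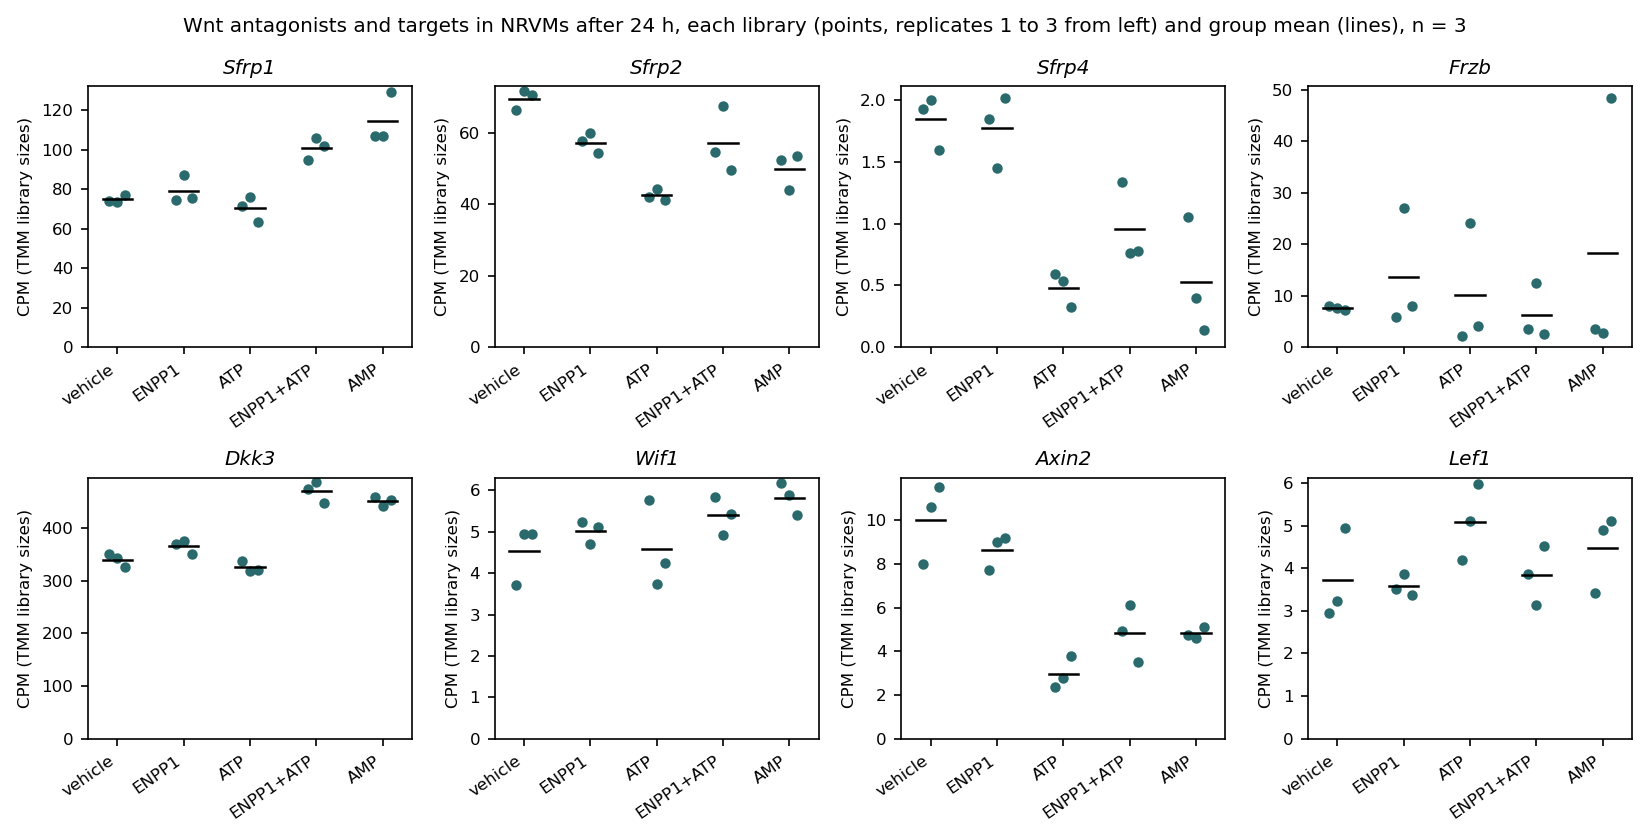
Level of each tested member in the 15 NRVM libraries, as CPM on linear axes that start at 0, by medium, with 1 point per library and a line at each group mean. Axin2 and Sfrp4 were below vehicle with ATP, ENPP1+ATP and AMP, Sfrp1 and Dkk3 were above vehicle with ENPP1+ATP and AMP, and Frzb had 1 high library in each of 4 media.

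ENPP1+ATP against ATP MCndM changed 4 of 8 members in NRVMs, against 27.5% of all genes. Sfrp1 was higher by 0.52 ± 0.08, Sfrp2 by 0.43 ± 0.09, Dkk3 by 0.53 ± 0.04 and Axin2 by 0.70 ± 0.20 (largest adjusted p = 0.00626). Between AMP and ENPP1+ATP, 0 of 8 members passed, against 9.66% of all genes, with 2 members and 2896 genes at an unadjusted p under 0.05 and 1117 genes by DESeq2. Sfrp1 was at 0.18 ± 0.08 and Sfrp2 at -0.20 ± 0.09 there. Without ENPP1+ATP replicate 3 the Sfrp2 difference was -0.29 (adjusted p = 0.0168), and without AMP replicate 1 the Sfrp4 difference was -1.78 (adjusted p = 0.0411). With ENPP1 alone, 0 of 8 members and 0% of genes passed by edgeR and 1 gene by DESeq2, with 693 genes and 2 members at an unadjusted p under 0.05. Those 2 were Sfrp2, at 57.6, 60 and 54.3 CPM and below all vehicle libraries (-0.28 ± 0.09, adjusted p = 0.725), and Dkk3, at 370, 375 and 352 CPM and above them (0.10 ± 0.04, adjusted p = 0.896).

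The fibroblast markers moved in the same NRVM libraries, from 24800 to 26100 CPM with vehicle to 8290 to 8750 CPM with ENPP1+ATP, 11500 to 12300 CPM with AMP and 10400 to 11700 CPM with ATP. None of the 9 was at 0. The 9 cardiomyocyte markers summed to 28700 to 29600 CPM with vehicle, 24900 to 26000 CPM with ENPP1+ATP, 28500 to 30200 CPM with AMP and 16200 to 17400 CPM with ATP. The 10 smooth muscle or pericyte markers summed to 2400 to 2530 CPM with vehicle and to 1880 to 2050 CPM with ENPP1+ATP, AMP and ATP, and 9 macrophage markers to 4.56 to 5.44 CPM with vehicle and 8.95 to 16.9 CPM with these media. The 9 endothelial markers summed to 48.2 to 56.6 CPM with vehicle, 75.1 to 100 CPM with ATP, 47.3 to 115 CPM with AMP and 52.1 to 56.9 CPM with ENPP1+ATP. The 10 cell cycle genes summed to 535 to 550 CPM with vehicle, 642 to 677 CPM with AMP, 545 to 607 CPM with ATP and 515 to 536 CPM with ENPP1+ATP. Their part in the changes of the members was not tested.

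The wider pathway in NRVMs had 15 genes higher and 38 lower of 79 tested with ENPP1+ATP (median -0.18), against 28.6% and 27.4% of all genes, and 14 higher and 39 lower with AMP (median -0.22), against 29.2% and 28.0%. ATP alone gave 20 higher and 42 lower (median -0.213), against 30.2% and 29.7%. With ATP 1 of 14 Frizzled receptors and coreceptors was higher and 11 were lower, and 1 of 5 R-spondins and Lgr receptors was higher and 4 were lower. Of 17 tested targets other than the members, 3 were higher and 11 lower with ENPP1+ATP and 3 higher and 12 lower with AMP. Myc changed by -1.79 ± 0.08 and -1.75 ± 0.08, and the feedback inhibitor Nkd1 by -1.49 ± 0.13 and -1.27 ± 0.13 (largest adjusted p = 2.63e-11). Rnf43, a ligase that removes Frizzled receptors, rose by 1.11 ± 0.26 and 0.90 ± 0.27 (adjusted p = 0.000378 and 0.00363). Of 5 R-spondins and Lgr receptors, 3 were lower and 1 higher in both media, with Rspo1 at -1.92 ± 0.21 and -2.31 ± 0.22 and Rspo3 at -2.03 ± 0.33 and -1.85 ± 0.32 (largest adjusted p = 9.49e-06). Of 7 other antagonists, 5 were lower and 1 higher with ENPP1+ATP and 6 lower and 1 higher with AMP, led by Trabd2b (-1.89 ± 0.16 and -1.502 ± 0.153), Igfbp4 (-1.71 ± 0.11 and -1.08 ± 0.11) and Apcdd1 (-1.02 ± 0.12 and -1.46 ± 0.13). Of 9 Wnt ligands 0 were higher and 4 and 2 were lower, and of 14 Frizzled receptors and coreceptors 1 was higher and 8 were lower in each medium, among them Fzd7 (-0.80 ± 0.10 and -1.03 ± 0.10). Tcf7l1, a repressor of the TCF family, was at -1.02 ± 0.08 and -1.21 ± 0.08 (adjusted p = 1.82e-10 and 1.09e-11).

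In the single-cell data the ENPP1CKO library held 7460 barcodes with 28039559 counts of unique molecules and the control library 5347 barcodes with 22746607, and 68 barcodes were found in both. After filters, 7252 and 5236 cells remained in 18 clusters, of which 15 were named from their markers. As there is 1 library per genotype no test between genotypes was possible, and intervals are exact 95% limits for counting error only. Enpp1, the deleted gene, had 28.6 CPM in ENPP1CKO and 126 CPM in control among fibroblast-like cells, a log2 ratio of -2.14 [-2.30, -1.99]. In macrophage-like cells it was at 11.2 and 13.7 CPM.

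Fibroblast-like cells were 3665 of the ENPP1CKO cells (50.5%) and 1786 of the control cells (34.1%), with 4029 and 5067 counts in the median cell. Each of their 4 clusters had 9 of 10 fibroblast markers. Sfrp1, Sfrp2, Frzb and Dkk3 had their highest measured level in these cells in both libraries. For Dkk3 in control, the 11 cardiomyocyte-like cells with 0 counts were too few to rank. There 3 counts would be 169 CPM, against 202 CPM in fibroblast-like cells. For Sfrp4 the order was not resolved, with 2.48 CPM in ENPP1CKO and 7.48 CPM in control and 0 counts in the other named classes, where the upper 95% limit in control was 10.0 CPM in smooth muscle or pericyte-like and 12.4 CPM in T or NK cell-like cells. For Sfrp1 the fibroblast-like level was 582 CPM with ENPP1CKO and 1250 CPM with control, and the macrophage-like level 9.1 and 18.9 CPM. Next among named classes came 10 and 9 Schwann or glial-like cells, at 198 and 395 CPM on 7 and 17 counts. Sfrp2 was at 2970 and 4280 CPM, and smooth muscle or pericyte-like cells held 153 [117, 195] and 108 [77.5, 148] CPM and endothelial-like cells 42.7 and 117 [90.1, 149] CPM, so that the next class in the order differed between the libraries. Frzb was at 417 and 599 CPM, and Dkk3 at 212 and 202 CPM, with 35.8 and 65.1 CPM in smooth muscle or pericyte-like cells. In macrophage-like cells Sfrp2 was at 46.1 and 58.9 CPM, Frzb at 7.48 and 10.3 CPM and Dkk3 at 4.26 and 3.3 CPM. Sfrp2 differed between the macrophage-like clusters, at 112 and 107 CPM in cluster 11, 38.5 and 47.5 CPM in cluster 8 and 49.2 and 45.8 CPM in cluster 9. Free RNA can give counts in droplets of every cell type, and its part in these levels was not tested.

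The share of cells with a count was compared after each cell was thinned to 1000 counts, which 3555 ENPP1CKO and 1742 control fibroblast-like cells had. Of ENPP1CKO cells 39.4% held Sfrp1, against 60.9% of control cells. The shares were 59.4% and 77.6% for Sfrp2, 28.9% and 40.5% for Frzb and 17.6% and 17% for Dkk3. In macrophage-like cells the shares were 1.03% and 1.75% for Sfrp1, 4.13% and 6.51% for Sfrp2, 0.671% and 0.763% for Frzb and 0.361% and 0.539% for Dkk3, with 3252 and 3232 counts in the median cell before thinning. Unthinned shares in fibroblast-like cells were 72.3% and 87.7% for Sfrp1, 75.7% and 91.2% for Sfrp2, 61.5% and 76.0% for Frzb and 49.2% and 56.0% for Dkk3. In thinned cells Sfrp1 and Sfrp2 were found together in 28.7% of ENPP1CKO cells, where their separate shares multiply to 23.4%, and in 51.5% of control cells, against 47.2%.

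The highest levels of the targets lay outside the fibroblast-like cells. Lef1, which is known for its role in T cell development, was highest in T or NK cell-like cells, with 135 [99.3, 180] CPM in ENPP1CKO and 105 [71.1, 148] CPM in control, and was found in 17.3% of 179 and 13.6% of 140 cells. In fibroblast-like cells it had 2 counts among 16112603 and 3 among 9760111. In macrophage-like, endothelial-like and smooth muscle or pericyte-like cells it had 0 counts in both libraries, where 3 counts would be 0.44 and 0.367 CPM, 1.75 and 5.39 CPM, and 7.15 and 8.14 CPM. The highest measured level of Axin2 was also in T or NK cell-like cells, at 11.5 and 13.5 CPM on 4 counts in each library, with wide intervals. In fibroblast-like cells it had 14 counts in ENPP1CKO and 4 in control, a log2 ratio of 1.08 [-0.59, 3.15]. At this depth a difference of Axin2 or Lef1 between genotypes was not detectable in fibroblast-like cells. The highest measured level of Dkk2 was in endothelial-like cells, at 6.43 and 14.4 CPM on 11 and 8 counts, and Sfrp5 and Wif1 had at most 3 counts in all cells of a library.

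**Figure D4:**
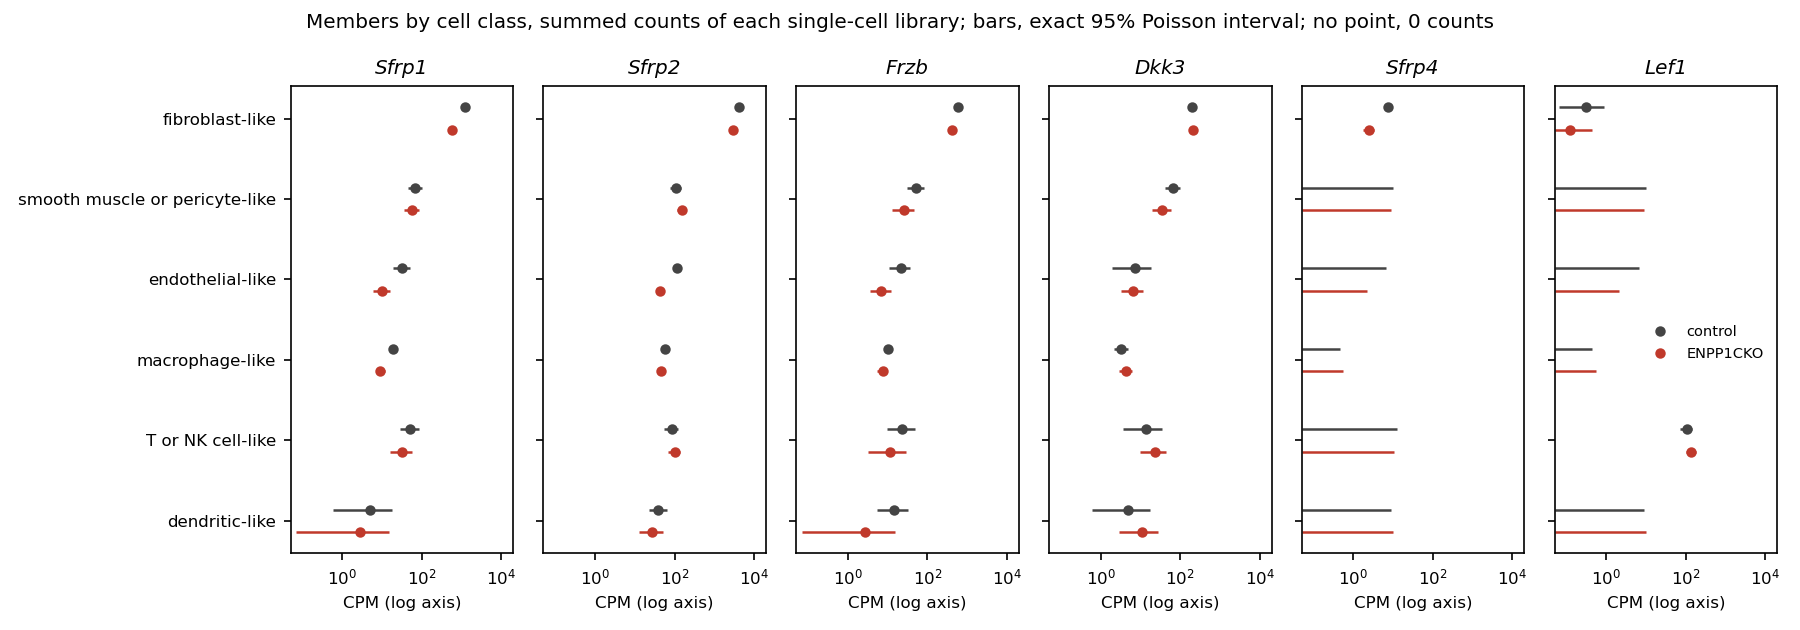
Level of 6 members by cell class in each single-cell library, as CPM of summed counts on a log axis, with exact 95% Poisson intervals and no point where there were 0 counts. Sfrp1, Sfrp2, Frzb and Dkk3 were highest in fibroblast-like cells and Lef1 in T or NK cell-like cells, and Sfrp4 had counts in fibroblast-like cells among the classes shown.

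Between genotypes, Sfrp1, Sfrp2 and Frzb were lower in ENPP1CKO fibroblast-like cells, and Dkk3 was not. The log2 ratio was -1.10 [-1.14, -1.06] for Sfrp1, -0.53 [-0.55, -0.51] for Sfrp2, -0.52 [-0.57, -0.47] for Frzb and 0.07 [-0.01, 0.15] for Dkk3. Of the 5 members with at least 100 counts, 2 were past 1.5-fold, both lower, against 8.0% of all genes past it in either direction and 4.04% lower. The median was -0.53 over these members and 0.018 over all genes. Sfrp1 and Sfrp2 are named in a dot plot of the study drawn from these libraries, so their direction is not independent evidence. Sfrp4, the other of the 2, was at 2.48 and 7.48 CPM (-1.59 [-2.19, -1.02]), but 36 of its 73 control counts came from 1 cell. Without the richest cell of each library, 38 and 37 counts remained and the ratio was -0.69 [-1.38, 0.01]. These 75 counts are under the minimum of 100, which was applied under every setting, so Sfrp1 was then the 1 member counted as past 1.5-fold. Over all cells, 2 of 6 members were past 1.5-fold, again Sfrp1 (-0.71 [-0.75, -0.67]) and Sfrp4 (-1.28 [-1.85, -0.73]), against 13.6% of all genes. Without the cell richest in Sfrp4 of each library, Sfrp4 was at -0.54 on 88 counts over all cells and Sfrp1 was again the 1 member counted.

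The 4 fibroblast-like clusters were unevenly shared. Cluster 0, led by Aspn, Cilp and C1qtnf3, held 1457 ENPP1CKO and 262 control cells. Cluster 2, led by Sfrp2, Meg3 and Ogn, was the largest in both libraries, with 1923 and 1002 cells. Cluster 4, led by C1qtnf3, Col11a1 and Cthrc1 and with Acta2 among its top genes, held 170 and 436 cells, and cluster 10, led by Aspn and the interferon-induced gene Ifit3, held 115 and 86. Sfrp1 was lower in ENPP1CKO cells in all 4, at 334 against 609 CPM in cluster 0, 786 against 1620 CPM in cluster 2 and 748 against 981 CPM in cluster 4. Sfrp2 was lower in clusters 0 (1290 against 2380 CPM), 2 (4470 against 5710 CPM) and 10 but higher in cluster 4 (3710 against 2900 CPM). Frzb was lower in cluster 0 (396 against 697 CPM) and cluster 2 (441 against 728 CPM) and level in cluster 4 (340 against 342 CPM). With 1 library per genotype a cluster held mostly by 1 library may be that library and not a type of cell.

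**Figure D5:**
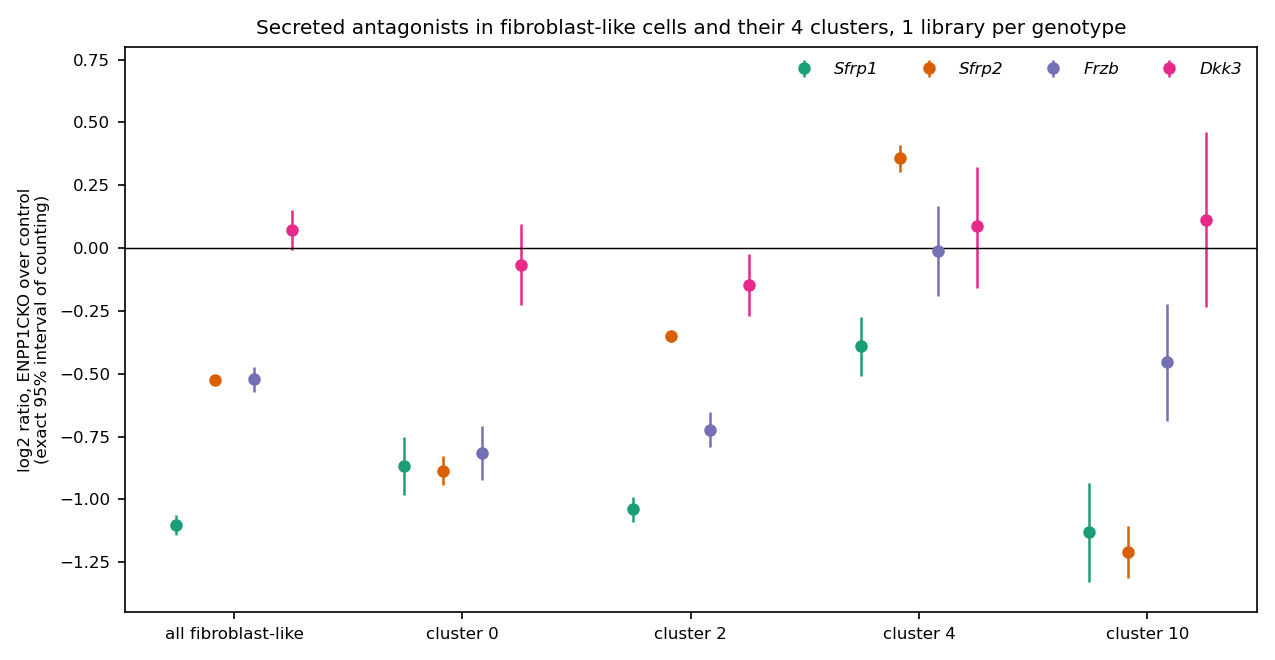
Log2 ratio of ENPP1CKO over control for 4 antagonists in all fibroblast-like cells and in each of their clusters, with exact 95% limits for counting error. Sfrp1 lay below 0 in every cluster and Sfrp2 lay above 0 in cluster 4 only.

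Among fibroblast-like cells, 64 of 107 other pathway genes reached 100 counts over both libraries. Of these, 4 were higher and 8 lower past 1.5-fold in ENPP1CKO, with a median log2 ratio of 0.035, against 3.96% and 4.04% of all genes. Among ligands Wnt9a was higher (5.15 against 2.97 CPM, 0.79 [0.17, 1.46]), as was Wnt11 (6.76 against 3.69 CPM, 0.88 [0.32, 1.46]), and Wnt5b was lower (-0.81 [-1.39, -0.23]). Of 14 Frizzled receptors and coreceptors, Fzd3 was higher (1.01 [0.39, 1.67]), and 3 were lower, among them Fzd2 (32.5 against 55.5 CPM, -0.77 [-0.95, -0.60]) and Fzd5 (-0.74 [-1.13, -0.34]). Of 12 other targets Ccnd1 was higher (16.6 against 9.12 CPM, 0.86 [0.51, 1.23]) and 4 were lower, among them Ccn5 (620 against 1380 CPM, -1.15 [-1.19, -1.12]) and Ephb3 (-0.91 [-1.25, -0.58]). None of 16 signal transduction genes, 10 TCF factors and cofactors and 5 other antagonists with enough counts was past 1.5-fold. Acta2, a myofibroblast gene, moved with these results, at 255 against 1060 CPM in fibroblast-like cells, and its part in them was not tested.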

How the data were processed

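RNA sequencing of CFs (20 libraries) and NRVMs (15 libraries) and single-cell RNA sequencing of nonmyocytes (2 libraries) were analysed. The authors deposited whole-number read counts per gene for CFs and NRVMs and counts of unique molecules per gene and barcode for nonmyocytes, without normalization. The submitters' processing notes name STAR 2.5.3a, Cell Ranger and the builds mm10 and rn6, and the program that counted reads in genes is not given in the sources used here. Groups were taken from the sample labels.

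CF and NRVM counts were analysed separately in R 4.3.3 with edgeR 4.0.16: genes were filtered by filterByExpr, scaled by TMM and fitted with 1 mean per group and robust quasi-likelihood dispersion over all libraries. Benjamini-Hochberg adjustment ran over all genes tested, with a threshold of 0.05. The model was tested on simulated data. DESeq2 1.42.0, another scaling, no filter, fits of 2 groups alone, non-robust dispersion, a replicate block and each library left out served as alternatives, as did, added after the data were seen, leaving out 4 NRVM libraries together. RPKM used merged exon lengths.

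For single cells scanpy 1.11.5 was used under Python 3.11.15. Barcodes with fewer than 200 genes or over 20% mitochondrial counts were removed, as were doublets predicted by Scrublet (2.06% of ENPP1CKO and 1.37% of control barcodes). Leiden clustering at resolution 0.5 used 30 principal components, 15 neighbours and 1996 variable genes, without the members and Enpp1. A cluster was named where at least 8 of 10 markers of a class were found, a threshold chosen after the data were seen. The share of markers found also had to lead the next class by at least 0.15. For want of that lead, cluster 3 (10 macrophage and 9 fibroblast markers) and cluster 17 (9 macrophage and 8 neutrophil markers) stayed unnamed. A cluster with few counts per cell also needed a marker of its class among its top genes. The 3 unnamed clusters held 2.33% of ENPP1CKO and 8.1% of control cells. Counts were summed per class and library. Differences past 1.5-fold with at least 100 counts in both libraries together were counted, and intervals and floors of 3 counts cover counting error only.

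All members were named. Other pathway genes were named as up to 3 rises and 3 falls per list by size of change where the mean log2 CPM reached 1, or as up to 2 higher and 2 lower per list in fibroblast-like cells, and some of these are left out of the text. The members and lists were chosen with earlier results of these data known.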

Additional observations from a re-analysis of the deposited data

Results flagged for a closer look

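The effect of a medium on a member differed between 24 h and 48 h in 4 cases in CFs, by the interaction of medium and time in edgeR. These were 2 of 6 members with each medium, against 30.0% of all genes with ENPP1+ATP and 31.7% with AMP. The count of members thus lay near the share of all genes. For Sfrp1 the log2 difference was -1.262 ± 0.137 with ENPP1+ATP MCndM (adjusted p = 1.7e-07) and -1.4 ± 0.137 with AMP MCndM (adjusted p = 2.64e-08), and both effects changed sign, from above both vehicle libraries at 24 h to below both at 48 h, in all 4 libraries of the 2 media at each time. For Sfrp2 it was 0.914 ± 0.0766 with ENPP1+ATP (adjusted p = 2.53e-09) and 1.288 ± 0.0766 with AMP (adjusted p = 7.57e-12), and Sfrp2 stayed below vehicle in all 4 libraries at each time.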

How the results depend on the processing

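No value past its threshold with all libraries changed direction under any setting run. Apart from leaving out single libraries, 161 counts of members that passed stayed within 1.5 times and 9 did not. Of single members 1059 values kept their call or, in single cells, moved by less than the counting error, 14 in single cells moved by more, 8 newly passed in the same direction, 2 passed in the other direction and 12 no longer passed. Those 2 were Frzb in NRVMs with AMP (-1.268) and ATP (-1.274), with the 4 libraries uneven in Frzb left out together, a setting added after the data were seen. In CFs at 24 h, AMP against ENPP1+ATP gave 1 member by DESeq2 and 1 in a fit of the 2 groups alone, against 2. DESeq2 gave Lef1 a log2 fold change of 2.176 but no adjusted p, and Lef1 is counted above as no longer passing. For 48 h against 24 h with ATP the count was 2 without robust dispersion and 3 in a fit of the 2 groups alone, against 1. With no filter on low counts, NRVMs gave 1 member with ENPP1 and 2 for AMP against ENPP1+ATP, against 0. Results with single libraries left out are given as the range of members that passed. In CFs the range was 4 to 5 for ENPP1+ATP at 24 h and 3 to 4 at 48 h, 0 to 1 for ATP at 48 h, 1 to 2 for AMP against ENPP1+ATP at 24 h, 3 to 4 and 3 to 5 for ENPP1+ATP against ATP at 24 h and 48 h, 0 to 1 for vehicle and 2 to 3 for AMP between times. In NRVMs it was 3 to 5 for ENPP1+ATP, 5 to 6 for AMP, 3 to 4 for ATP, 3 to 4 for ENPP1+ATP against ATP and 0 to 1 for AMP against ENPP1+ATP. The cause of these shifts was not tested.

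Genes that passed differed by over 1.5 times in few comparisons. In CFs AMP against ENPP1+ATP gave 1118 genes at 24 h and 382 in a fit of 2 groups, and at 48 h 29, against 125 by DESeq2, 322 with no filter, 2 with 2 groups, 47 with the replicate block and 11 without robust dispersion. ENPP1 gave 26 and 180 genes with no filter at 24 h and 48 h, and 1 with 2 groups at 48 h, against 0. ATP at 48 h gave 1400 and 2590 with 2 groups, and 48 h against 24 h with vehicle 873 and 2485. ENPP1 in NRVMs gave 1 by DESeq2, 14 with no filter and 5 with 2 groups, against 0.

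The replicate numbers were not taken as a pairing, since no source gives libraries of the same number a shared origin. In CFs the deviations of same-numbered libraries correlated between -0.112 and 0.277 and in NRVMs between -0.166 and 0.124, and 16 of 20 CF and 6 of 15 NRVM libraries correlated best with their own number, a hint in CFs from the data and not the design. With 2 libraries per CF group the deviations mirror each other, so both libraries of a group always count alike. The 16 are thus not separate observations, and the numbers expected by chance were not worked out. The replicate block left every count of members as it was, for example 4 with ENPP1+ATP in CFs at 24 h, where 8933 genes passed in place of 8787.

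In single cells, Sfrp1 was past 1.5-fold under every setting run, and Sfrp4 was not counted in all of them. With the cell richest in Sfrp4 left out of each library, a setting added after the data were seen, 1 member was counted in fibroblast-like cells and 1 over all cells, against 2, and Sfrp4 was at -0.686 and -0.543. After thinning, which left Sfrp4 with 13 and 14 counts, Sfrp1 and Frzb were counted in fibroblast-like cells and Sfrp1 alone, 1 member, over all cells. The Sfrp2 ratio in fibroblast-like cells was -0.478 after thinning, -0.494 at resolution 1.0, -0.496 with doublets kept and -0.492 with the members kept in clustering, and Frzb was at -0.664 after thinning. Over all cells, thinning gave -0.586 for Sfrp1, 0.0189 for Sfrp2, 0.513 for Dkk2 and 0.474 for Dkk3. With clusters of 3 to 7 markers also named, a setting added after the data were seen, Sfrp1 was at -0.974, Sfrp2 at -0.394 and Frzb at -0.380. Depth limits Axin2, Lef1, Sfrp4 and Dkk2 in these libraries.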
